A study of Mus musculus with 8 samples.

Results

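The regions described here are stretches of the mouse genome, far from protein-coding genes, where a Smad4 peak was listed in both wild-type (WT) T cell samples and in neither Smad4 knockout (KO) sample. Peaks of the 2 WT lists that overlapped by at least 1 bp were joined into regions, and a region was WT-only when it held a peak of both WT lists and met no peak of either KO list. Members are the WT-only autosomal regions whose centre lay outside every protein-coding gene, more than 20 kb and at most 100 kb from the nearest end of one. The rule found 1542 members, 9.71% of the 15882 WT-only regions and 9.34% of the 16501 regions that held a peak of both WT lists. Members were thus chosen by the presence of peaks in WT and their absence in KO, so the difference between WT and KO is given below as a description, without a test.

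Smad4 was immunoprecipitated with its bound chromatin (ChIP-seq) from CD4+ T cells of spleen and lymph nodes. All cells had been activated and then kept with interleukin-6 (IL6) while the TGF-β receptor was inhibited, and were taken at 12 h. The 2 WT samples came from female C57BL/6 mice. The KO samples carried CD4cre;Smad4fl/fl, in which Cre driven from Cd4 sequences deletes floxed Smad4 in the T cell lineage; KO replicate 1 was a pool of males and females and KO replicate 2 was male. Sex and genotype therefore cannot be told apart. The 4 input samples were not analysed here. Ages are not given in the labels, which also do not say whether replicates were separate animals, so differences between replicates may be technical.

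The autosomal lists held 26698 and 19450 peaks in the WT samples and 552 and 417 in the KO samples. Each list gives a position and a width but no height, and the sequencing depth behind it is unknown. A peak in a bulk sample does not tell a site bound in all cells from one bound in some. The ends of Cd3e, Cd3d, Cd3g and Lck, genes of the T cell receptor complex and its kinase, had a WT-only region within 1 kb. Those of Cd4, Csf1r and Alb had none, and nor did those of the T cell genes Bach2 and Ets1. Of the 8070 autosomal coding genes nearest to any sequence in the range of the members, 25.4% had such an end region. A few genes therefore say little about cell type. These are positions of Smad4, not levels of expression.

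Smad4 is the common partner of the receptor-activated SMAD proteins, which carry signals of the TGF-β family from the membrane to the nucleus. SMAD proteins recognise a short DNA element, the SMAD box, with low affinity and usually bind beside other factors, among them AP-1, RUNX, ETS and STAT proteins. Regulatory elements far from gene ends, such as enhancers, can act on a gene across other sequence, so the nearest gene is a label of position and not a known target.

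Some members lay at the starts of long noncoding RNA (lncRNA) genes, and for these RefSeq gives the promoter sequence. No genome was used, so sequence was read only there. Of 2333 lncRNA genes whose promoter window of 300 bases was centred in the same distance range, 75 met a member (3.21%), and 70 members met such a window (4.54%). A whole window lay within 46 members, for 50 lncRNA genes. The windows below are on GRCm38.p6 (mm10), from RefSeq, read 5′ to 3′ on the strand of the lncRNA. Capitals mark the SMAD box (CAGAC, or GTCTG on the other strand) and the AP-1 element (TGANTCA). The first 3 lie in wide members, and the other 3 hold an AP-1 match; all were picked after their matches were seen.

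2310001H17Rik, chr6:129238433-129238732, minus strand: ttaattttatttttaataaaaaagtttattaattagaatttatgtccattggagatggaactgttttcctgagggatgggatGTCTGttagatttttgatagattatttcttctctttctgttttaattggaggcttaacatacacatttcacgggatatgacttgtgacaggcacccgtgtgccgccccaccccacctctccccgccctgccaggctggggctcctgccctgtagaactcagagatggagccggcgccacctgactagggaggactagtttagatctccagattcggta
Malat1, chr19:5802623-5802922, minus strand: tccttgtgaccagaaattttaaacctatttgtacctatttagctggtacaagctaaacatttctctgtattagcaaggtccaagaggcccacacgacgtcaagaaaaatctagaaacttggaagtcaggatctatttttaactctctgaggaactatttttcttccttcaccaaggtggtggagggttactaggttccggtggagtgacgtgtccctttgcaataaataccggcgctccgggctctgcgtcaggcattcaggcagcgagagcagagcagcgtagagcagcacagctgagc
Dleu2, chr14:61682324-61682623, minus strand: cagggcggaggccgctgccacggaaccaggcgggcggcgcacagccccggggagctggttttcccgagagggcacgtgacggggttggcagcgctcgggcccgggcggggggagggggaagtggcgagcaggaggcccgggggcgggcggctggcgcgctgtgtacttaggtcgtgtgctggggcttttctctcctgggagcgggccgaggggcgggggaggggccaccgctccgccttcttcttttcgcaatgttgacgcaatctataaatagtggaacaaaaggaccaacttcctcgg
Gm41309, chr15:38602237-38602536, minus strand: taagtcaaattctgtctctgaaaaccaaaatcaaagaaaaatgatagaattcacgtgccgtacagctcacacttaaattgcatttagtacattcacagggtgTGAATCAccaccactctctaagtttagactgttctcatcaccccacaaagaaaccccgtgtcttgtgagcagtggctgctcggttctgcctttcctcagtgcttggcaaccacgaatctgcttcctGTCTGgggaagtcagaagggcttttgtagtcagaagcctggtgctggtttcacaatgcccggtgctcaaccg
D730003I15Rik, chr1:191224204-191224503, plus strand: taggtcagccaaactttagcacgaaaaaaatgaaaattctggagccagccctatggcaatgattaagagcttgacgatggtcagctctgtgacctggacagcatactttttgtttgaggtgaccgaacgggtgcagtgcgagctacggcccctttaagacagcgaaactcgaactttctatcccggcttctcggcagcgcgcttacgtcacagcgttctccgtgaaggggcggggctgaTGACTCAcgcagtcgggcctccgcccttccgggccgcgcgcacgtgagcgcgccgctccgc
Mirt1, chr19:53464747-53465046, minus strand: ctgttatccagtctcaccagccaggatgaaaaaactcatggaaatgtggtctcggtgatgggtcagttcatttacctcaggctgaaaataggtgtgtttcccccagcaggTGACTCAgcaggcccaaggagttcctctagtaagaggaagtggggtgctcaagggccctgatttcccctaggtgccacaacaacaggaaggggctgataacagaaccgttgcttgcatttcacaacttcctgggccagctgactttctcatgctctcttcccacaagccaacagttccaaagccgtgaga

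The 2310001H17Rik window lies in a member 28.1 kb from Cd69, with peaks of 2592 bp in WT replicate 1 and 2366 bp in WT replicate 2. It holds 1 SMAD box and no AP-1 match. Malat1, an abundant nuclear lncRNA, starts inside a member with peak widths of 2638 and 2140 bp in the WT lists; its window holds neither element, and nor does that of Dleu2, whose member had 2380 and 2024 bp. Gm41309 has 1 match to each element and lies in a member of 1964 and 1772 bp. D730003I15Rik, 41.2 kb from the stress-response factor gene Atf3, and Mirt1, 64.3 kb from the phosphatase gene Dusp5, hold 1 AP-1 match each and no SMAD box. Their members were narrower, at 876 and 660 bp for D730003I15Rik and 702 and 572 bp for Mirt1.

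Over the 50 windows, 60.0% held a SMAD box on either strand (95% exact binomial interval 45.2 to 73.6%), against 52.8% of the 2258 lncRNA windows of the same distance range that met no member, and 49.7% of all 27025 promoters of that length. The AP-1 element was in 22.0% (11.5 to 36.0%), that is 11 windows, against 11.1% and 7.93%. The RUNX element TGTGGTTT was in 8.0%, against 2.48% and 1.86%, and the GC-rich SMAD element GGCGCC in 14.0%, against 2.44% and 12.0%. The palindromic SMAD element GTCTAGAC and the ETS element ACAGGAAGT were in none of the 50. The STAT element TTCCNGGAA was in 2.0% against 1.33%, and the E-box CAGGTG in 22.0% against 20.2%. Both strands were searched for these 8 motifs, which can overlap one another. The mean GC content was 53.7% in the 50 windows and 47.0% in those not met; its part in these shares was not tested. A match is a run of letters, not a known binding site.

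Members became sparser with distance from coding genes. The range of 20 to 100 kb comprised 394 Mb of autosomal sequence and held 3.92 members per Mb (95% exact Poisson interval 3.72 to 4.12). The zone nearer to genes, from 1 to 20 kb, held 6.57 WT-only regions per Mb, and sequence over 100 kb away held 0.993. Within the range, density was 4.97 per Mb from 20 to 30 kb and 5.10 from 30 to 40 kb, and it was 2.29 from 90 to 100 kb. The median member was 39.4 kb from its nearest gene, with quartiles of 28.2 and 59.5 kb. These intervals cover counting error only, and neighbouring regions are not independent. Without WT replicate 2, whose list is the shorter of the pair, a peak of WT replicate 1 alone was enough. This gave 2836 members and 7.20 per Mb.

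**Figure D1:**
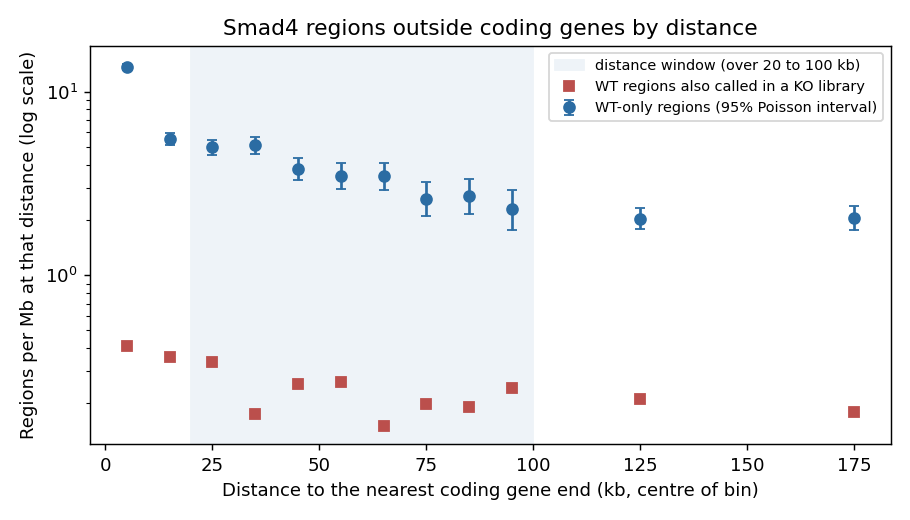
Regions per Mb of autosomal sequence outside coding genes (log scale) against distance to the nearest coding gene end (kb, centre of each bin); circles are WT-only regions with 95% exact Poisson intervals, squares are WT regions also called in a KO list, and shading marks the range of the members. Density was 4.97 per Mb from 20 to 30 kb and 2.29 per Mb from 90 to 100 kb.

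Chromosomes differed in density. Chromosome 19 held 5.20 members per Mb of eligible sequence (45 members) and chromosome 11 held 5.04, whereas chromosome 5 held 2.71 and chromosome 18 held 1.96 (30 members). Just inside the limits of the range, members lay 20.017 kb from Zbp1 and 99.604 kb from Gm52008; just outside, regions lay 19.972 kb from Ets2 and 100.669 kb from Cog6.

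The side of the nearest gene was known for the 1162 members whose nearest gene has a strand in the promoter table. The other 380 have none, among them the members of S1pr1, Icos and Dusp4. Of the 1162, 689 lay on the 5′ side (59.3%, 56.4 to 62.1%), where 54.0% of the eligible sequence lies. The interval counts members as independent, but members of one gene can share a side: all 9 at Eed were 5′. It is therefore too narrow for a comparison with the share of sequence. The share was 55.8% from 1 to 20 kb, against 53.9% of sequence, and 62.9% beyond 100 kb, against 52.6%. This comparison was chosen after the data were seen.

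**Figure D2:**
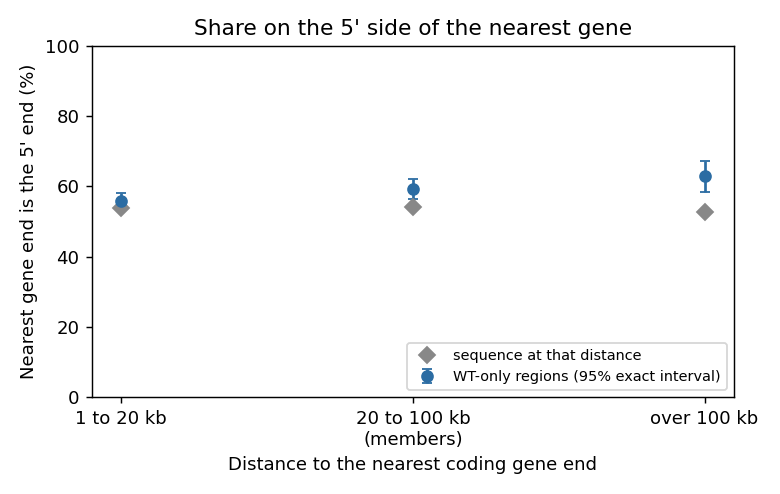
Share of WT-only regions on the 5′ side of the nearest coding gene (%), by distance class, with 95% exact binomial intervals, beside the share of sequence on that side. Regions at 20 to 100 kb stood at 59.3% against 54.0% of sequence. The intervals count regions as independent, which regions of the same gene are not.

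Many members lay together. The nearest other region with a peak of both WT lists, KO-called or not, was a median of 10.5 kb away. Within 10 kb, 757 members (49.1%) had such a region. Among other WT-only regions the share was 57.5% inside genes, 60.7% from 1 to 20 kb, 49.7% beyond 100 kb and 31.9% at gene ends. Lying together was thus not particular to members. Gaps between neighbouring coding genes long enough to hold eligible sequence (over 40 kb) numbered 5283, and 749 of them held a member (14.2%). The 183 gaps with 3 or more members, 3.46% of all eligible gaps, held 846 members (54.9%). Longer gaps have more room for members, and the share of eligible sequence in these 183 gaps was not computed. Without WT replicate 2 there were 341 such gaps.

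The gaps with most members were Rap1b to Mdm1, Saraf to Dusp4, Rnf19a to Ankrd46 and Eed to Picalm, with 11 each. Dusp4 encodes a phosphatase of MAP kinases and Eed a core subunit of the Polycomb repressive complex PRC2. In the gap of 637 kb between Saraf and Dusp4, 8 members were nearest to Dusp4 and lay 42.8 to 72.4 kb from it; the middle of this gap, over 100 kb from both genes, is outside the range of the members. The Eed to Picalm gap packed its 11 into 149 kb. In the gap from Irf2bp2 to Tomm20, 9 members stood beside 5 regions also called in a KO list, and in that from Smndc1 to Dusp5, 9 members stood beside 1. The Saraf to Dusp4 gap also held 1 KO-called region, with WT peak widths of 2064 and 2008 bp.

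**Figure D3:**
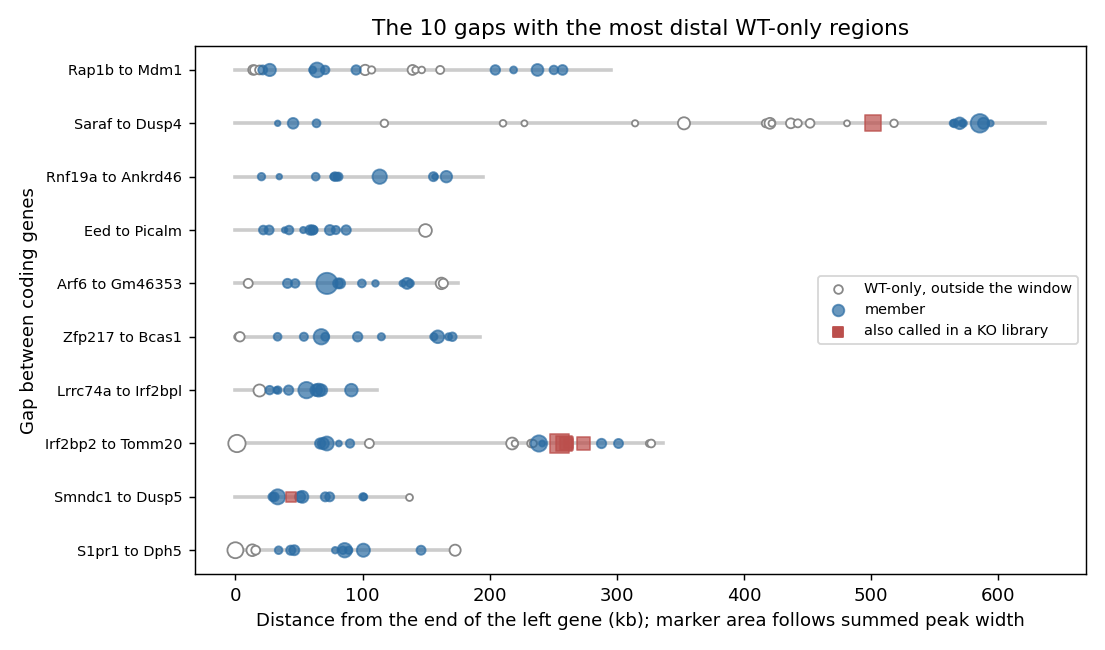
The 10 gaps with the most members, each drawn from the end of its left gene (kb); filled circles are members, open circles WT-only regions outside the distance range, squares regions also called in a KO list, and marker area follows summed WT peak width. The Eed to Picalm gap holds 11 members in 149 kb; in the Saraf to Dusp4 gap (637 kb) the rule leaves out regions over 100 kb from both genes.

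The widest members, by summed width of the WT peaks, were near genes of several kinds. The first, chr12:69446015-69450096, lay 72.1 kb from Arf6, which encodes a small GTPase of membrane traffic; its peaks were 4082 bp in WT replicate 1 and 2816 bp in WT replicate 2. The member at chr9:123923254-123926327, 37.3 kb from the chemokine receptor gene Ccr1, had 3074 and 2752 bp. Near Dusp4, chr8:34755063-34757724 had 2638 and 2626 bp, so the WT lists gave nearly the same width there. A member 34.9 kb from Ankrd55 and 45.2 kb from Il6st had 2140 and 2442 bp. Only 17 members had peaks of at least 2 kb in both WT lists, and 53 had the smallest width of the list in both (240 and 242 bp).

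Of the 8070 autosomal coding genes with eligible sequence nearest to them, 862 were the nearest gene of a member (10.7%), and 1168 flanked a gap with a member within range (14.5%). Most had 1 member (549 genes). S1pr1, the receptor by which lymphocytes leave lymph nodes, and Icos, a costimulatory receptor, had 10 each. Eed followed with 9, and Irf2bpl, Dusp4, Gm52008 and Zfp281 had 8 each. At S1pr1, 4 members lay on one side and 6 on the other, from 20.7 to 86.0 kb away; the widest, chr3:115800086-115801997, had peaks of 1476 and 1746 bp. At Icos, the members spanned 20.6 to 59.4 kb and were 344 to 1242 bp wide in WT replicate 1 and 242 to 882 bp in WT replicate 2. Another Icos region in the same range was also called in both KO lists.

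Gene lists of T cell biology were then counted against this background of 10.7%. The lists overlap, were chosen with earlier results of these data known, and are not matched for how active their genes are, so the counts describe positions only. Among genes of the TGF-β and SMAD pathway, 6 of 22 eligible genes were the nearest gene of a member, at 13.5 members per Mb against 3.91 for all eligible genes. Id3, an inhibitor of E proteins and a known target of this pathway, had 6 members, all on its 5′ side. The type II receptor gene Tgfbr2 had 4, also 5′, 48.3 to 88.7 kb away with peaks of 574 to 722 bp and 242 to 504 bp. Id2 had 2. Smad7, the inhibitory SMAD, had a single wide one at chr18:75341656-75343835 (2114 and 1940 bp), 24.6 kb away. Smad3, the receptor-activated SMAD of TGF-β, had none, with 77.5 kb of eligible sequence nearest to it; most genes with a like amount (34.0 to 80 kb) had none either. Skil, a co-repressor of SMAD proteins, had none with 1.16 kb, and its relative Ski had no eligible sequence, as was also so for the IL-2 receptor gene Il2ra.

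The IL-6 pathway had members at 5 of 10 eligible genes. Il6st, which encodes the signalling chain gp130 of the IL-6 receptor, had 4 within 20.6 to 39.2 kb on its 5′ side. Their widths were 1572 and 1482 bp, 1672 and 1276 bp, 1582 and 1688 bp, and 1074 and 786 bp in WT replicates 1 and 2. Every one was thus wider than the median member, at 560 bp in WT replicate 1 and 440 bp in WT replicate 2. The kinase genes Jak1 and Jak2 had 2 members each, and Stat4, Socs2, Socs3, Pim1 and Ptpn2 had none.

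The Th17 list, genes of the IL-17-producing helper cell, had members at 6 of 12. Nfkbiz had 4, Il21 had 3, Hif1a had 2 and the aryl hydrocarbon receptor gene Ahr had 1. With an upper limit of 50 kb the count was 3 of 12. The signature cytokine genes Il17a and Il17f had none, with 37.7 and 1.32 kb of eligible sequence, so at Il17f there was hardly room for a member. Rora, Il22, Batf and Il1r1 had none either. Regulatory T cell genes had members at 3 of 6, with 3 at Il10, 3 at Nrp1 and 1 at Ctla4. Of Th1 and Th2 genes, 4 of 9 had members; the count was 2 with an upper limit of 50 kb and 7 when both genes flanking a member were counted. Ifng, the Th1 cytokine gene, had 5, of which the widest, at chr10:118494230-118496566, had 2022 and 1268 bp.

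Cytokine and cytokine receptor genes had members at 9 of 10, the exception being Il7r. The gap between Il2, the T cell growth factor gene, and Il21 held 13 regions with a peak of both WT lists, and 4 of them were members, with peak widths of 816 and 516, 778 and 626, 576 and 514, and 1420 and 522 bp. The widest region of that gap, chr3:37172770-37175799 with 2894 and 2148 bp, was not a member, since both KO lists had a peak in it.

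T cell identity genes had members at 15 of 20. Bach2, a repressor that restrains effector differentiation, had 5, all on the 5′ side, 21.6 to 89.4 kb away; 3 of these had over 1 kb in WT replicate 1. Ets1 also had 5, whereas Satb1 and Myb had 3 each. Activation factors had members at 9 of 16. The early growth response gene Egr2 had 5, all 5′, the NF-κB subunit gene Nfkb1 had 4 and Fos had 3. Myc had 1, at chr15:62037808-62039011, with 1130 and 1204 bp.

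Costimulatory and inhibitory receptor genes had members at 9 of 15 and the highest density of the lists, 56.4 per Mb. Beside Icos, the activation marker Cd69 and the inhibitory receptor Tigit had 5 each, at 25.3 to 37.9 kb. Migration and homing receptors had members at 6 of 9, with 2 each at Cxcr4 and at the integrin genes Itga4 and Itgb1. Survival and cell cycle genes had members at 8 of 14, with 5 at Foxo1, 4 at Fasl and 3 at Bcl2l11; with an upper limit of 50 kb the count was 5 of 14. Among markers of other cells, B cell genes had 0 of 3 and hepatocyte genes 0 of 6. Myeloid genes had 1 of 5 (Irf8) and neuron genes 2 of 9 (Nefl and Gad2). The myeloid and neuron shares, 20.0 and 22.2%, were above the 10.7% of all eligible genes, with wide intervals (0.505 to 71.6% and 2.81 to 60.0%). Their densities were 4.01 and 8.22 members per Mb, against 3.91 for all eligible genes.

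**Figure D4:**
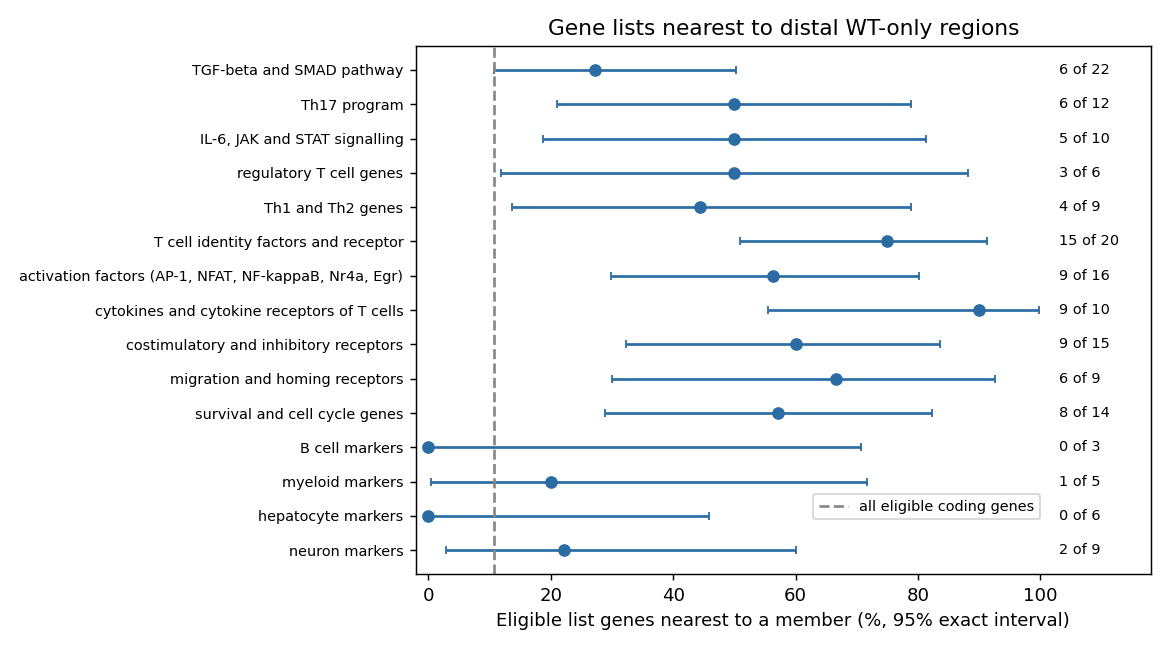
Share of each list's eligible genes that were the nearest gene of a member (%), with 95% exact binomial intervals and the counts at the right; the dashed line is the share over all eligible coding genes, 10.7%. The list of cytokines and cytokine receptors stood highest at 9 of 10, and B cell and hepatocyte genes had none.

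Genes near members often carried Smad4 at their own ends. Of all eligible genes, 2047 had a WT-only region within 1 kb of an end (25.4%). Among the 862 nearest genes of members the number was 433 (50.2%, 46.8 to 53.6%), and among the 7208 eligible genes without a member it was 1614 (22.4%). Of the genes with such an end region, 21.2% had a member, against 7.12% of those without. With genes split into 4 equal groups by the amount of eligible sequence, the share in each group was higher for genes with a member, at 50.9 against 23.9%, 49.7 against 23.4%, 52.5 against 23.6%, and 48.3 against 18.3%. Bach2, Ets1, Ifng and Icos had members and no end region.

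Members were not all free of genes of other kinds. A noncoding gene held the centre of 402 members (26.1%), against 17.9% of the eligible sequence, so "intergenic" holds for coding genes only. For lncRNA genes the share was 24.4% against 14.9% of sequence, and for pseudogenes 0.908% against 2.63%. The Myc member lies in the lncRNA gene Pvt1.

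The WT lists differed in the width of members. Peak centres in the 2 lists were a median of 37.6 bp apart, but the rule limits this distance, since the peaks had to overlap. For WT-only regions at gene ends the distance was 49 bp, and beyond 100 kb it was 36 bp. Median width was 560 bp in WT replicate 1 (quartiles 402 and 818 bp) and 440 bp in WT replicate 2 (308 and 648 bp), and 1105 members (71.7%) were wider in WT replicate 1. Widths correlated across members with a Spearman rho of 0.696 (n = 1542), as a description. WT-only regions at gene ends had medians of 666 and 588 bp, and those from 1 to 20 kb 532 and 434 bp. Medians close to those of members were found inside genes (560 and 444 bp) and beyond 100 kb (557 and 438 bp). In the distance range, WT replicate 1 had 2934 peaks, of which 56.3% had a counterpart in the other WT list, and WT replicate 2 had 1921, of which 86.8% did. Peaks without a counterpart were narrower, with medians of 304 against 568 bp in WT replicate 1 and 242 against 448 bp in WT replicate 2.

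The KO lists had few peaks in the range, 81 in KO replicate 1 and 64 in KO replicate 2. Most fell in regions that both WT lists shared, 70 (86.4%) and 55 (85.9%). Of the 1636 WT regions in the range, 1542 were WT-only (94.3%), against 96.2% of all autosomal WT regions; the rule itself used these peaks. The other 94 were called in a KO list (5.75%, 4.67 to 6.99%): 39 in KO replicate 1 only, 24 in KO replicate 2 only and 31 in both. That share was 1.52% at gene ends, 4.28% inside genes, 4.53% from 1 to 20 kb and 9.09% beyond 100 kb. KO-called regions of the range were wider in WT, with medians of 927 and 741 bp. With all autosomal WT regions split into 3 equal groups by summed WT peak width, in the widest group 14.0% of those in the range (11.0 to 17.5%), 11.0% of those from 1 to 20 kb and 3.26% of those at gene ends were KO-called. Members lay a median of 540 kb from a KO peak, and 3 had one within 1 kb.

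**Figure D5:**
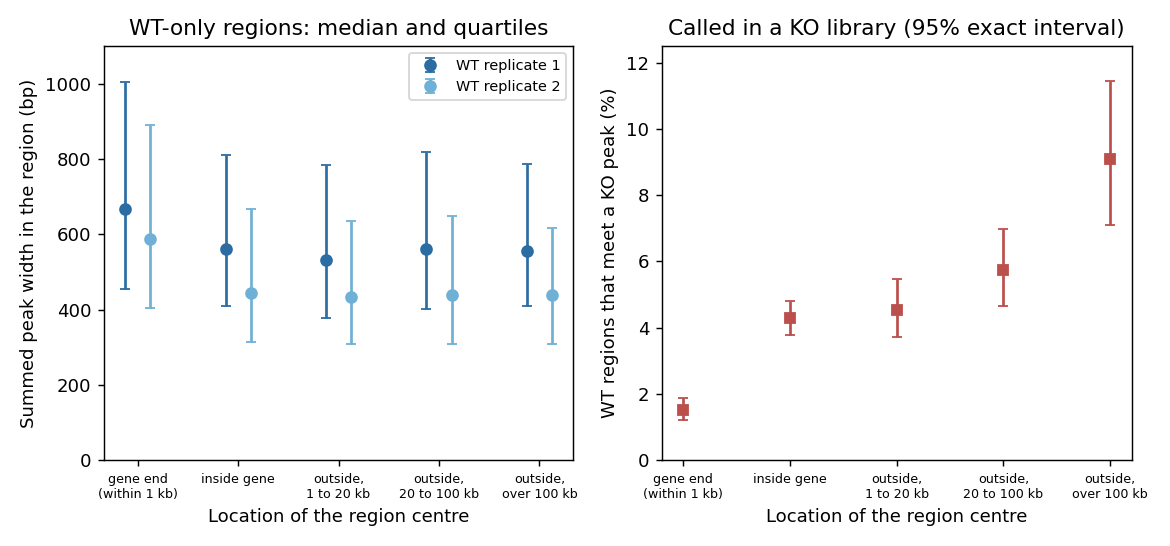
Summed WT peak width per WT-only region (bp, left, median with quartiles as bars) and the share of WT regions also called in a KO list (%, right, with 95% exact binomial intervals) by location of the region centre. Regions at 20 to 100 kb had median widths of 560 and 440 bp and a KO-called share of 5.75%, against 1.52% at gene ends.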

How the data were processed

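Smad4 ChIP-seq peaks were analysed for 2 WT and 2 KO samples; the 4 inputs were not analysed here. The deposited files hold peak positions (chromosome, start, end; unit: other, base coordinates) for each sample separately, with no score. Per the submitters' processing notes, HOMER 4.8.3, Bowtie and Trim Galore were used with build mm10, with no roles given; the peak threshold is not given in the sources used here. Depth is unknown.

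Coding gene bounds came from RefSeq (GRCm38.p6). Of 21900 coding genes, 21779 were used, since those with a start in the first 3 Mb of any chromosome but Y may carry scaffold coordinates. Shares have exact Clopper-Pearson 95% intervals and densities exact Poisson ones. No test between WT and KO was made, since the rule used that contrast. The members and the 15 gene lists were chosen with earlier results of these data known. Names were drawn from the 15 widest members, the 10 genes and 10 gaps with most members, and up to 4 genes per list. Not all of these are named in the text. A fixed set was also named: Il2, Il21, Il2ra, Il17a, Il17f, Ski, Skil, Smad3, Smad7, Ets1, Bach2, Satb1 and Myc. Others were named after their values were seen. Alternatives changed the overlap, KO distance, gene set, distance limits, chromosomes, widths and replicates. Python 3.11.15, numpy 2.4.6, pandas 2.3.3, SciPy 1.17.1 and matplotlib 3.10.9 were used, and the scripts were tested on simulated data. Motif shares over all members need a genome and were not run.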

Additional observations from a re-analysis of the deposited data

How the results depend on the processing

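Leaving out each replicate gave 1566 to 2836 members, 3.98 to 7.20 per Mb, 95.1 to 96.7% of WT regions meeting no KO peak, 186 to 341 gaps with 3 or more members, and 50.5 to 58.7% of nearest genes with an end region; the highest values came without WT replicate 2. Leaving out a WT replicate also dropped the need for a peak in both WT lists. Requiring 50% overlap of both peaks gave 3.34 members per Mb and an end share of 40.0%. With all RefSeq genes in place of coding genes there were 700 members, 1.57 per Mb and 62 such gaps. Only 491 of the main members (31.8%) were found again among those 700. A lower limit of 10 kb gave 4.32 per Mb, and an upper limit of 50 kb gave 1001 members, 4.71 per Mb and 104 gaps. With X added, density was 3.62 per Mb. Regions at or above the median width in both WT lists numbered 510, with medians of 923 and 764 bp, 86.9% meeting no KO peak, 1.30 per Mb, 363 nearest genes, 44 gaps, an end share of 38.8% and 46 list genes. Of the counts for single gene lists, 16 moved by over 1.5 times. With these wider regions they were 3 of 22 for TGF-β and SMAD genes, 3 of 12 for Th17, 3 of 10 for IL-6, 2 of 9 for Th1 and Th2, 5 of 10 for cytokines, 3 of 9 for migration, 4 of 14 for survival, 0 of 5 for myeloid and 1 of 9 for neuron genes, against 4.50% of all eligible genes. A lower limit of 10 kb gave 5 of 8 regulatory T cell and 7 of 13 Th1 and Th2 genes, and leaving out WT replicate 2 gave 2 myeloid genes. A distance of 5 kb gave an end share of 63.5%, against 27.6% of eligible genes without a member, and a noncoding share of 43.8%. For the other end shares of this section, the share of genes without a member was not recomputed. Another 108 recomputed values of these results stayed within the spread or factor used to judge them. Each WT list was also set against the KO list of the same replicate number alone. This pairing gave 1542 members, 3.92 per Mb and 183 gaps, as without it, and the same count for every gene list. It can differ from the main rule only where a KO peak meets a region but misses the WT peak of its own number. Little change was therefore possible, and the equal counts say little about pairing. No paired analysis was possible because, beyond this matching of lists, no result comes from a fitted test that could take a replicate block. Smaller peaks may be missing from any list, since depth is unknown.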

Other observations

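On the X chromosome, left out of the members, 33 WT-only regions lay 20 to 100 kb from a coding gene, or 0.794 per Mb (95% exact Poisson interval 0.546 to 1.11) over 41.6 Mb, with median widths of 470 and 390 bp; 3 further regions were called in a KO list. The WT samples were female and the KO samples male or pooled. The member at chr10:93432361-93433404, between Elk3 and Lta4h (1044 and 686 bp), holds the hairpin of Mir7688.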
